A study of Solenopsis invicta with 12 samples.

Results

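Antennal RNA of polygyne SB/Sb workers (P_Bb) was compared with that of monogyne SB/SB workers (M_BB) of the red imported fire ant, *Solenopsis invicta*. The comparison takes 8 of the 12 antennal libraries, 4 in each group, chosen by the genotype and the colony type in the sample labels. The other 4 libraries are from polygyne SB/SB workers (P_BB) and enter the model for their share in the estimate of the spread. P_Bb workers carried 1 copy of each form of the social supergene and lived in colonies with several queens, and M_BB workers carried the SB form on both chromosomes and lived in colonies with a single queen, so that genotype and social environment change together and cannot be told apart from these groups alone. All groups were medium-sized workers drawn to honey in the foraging area of laboratory colonies. The labels give no treatment and no age. Genotype was read at the *Gp-9* marker. For each library the antennae of many workers with the same genotype and colony were pooled, and the RNA was amplified before sequencing. Bioreplicates are numbered 2, 3, 6 and 7, and the P_Bb and P_BB libraries of a number came from the same colony. In pooled tissue, fewer cells of a type and less RNA per cell cannot be told apart.

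The supergene is a large block of genes on the social chromosome, linkage group 16, within which SB and Sb do not recombine. Queens and workers of polygyne colonies can carry Sb, whereas monogyne workers do not. Antennae are the main organ of smell in ants: odorants enter pores of the sensilla, odorant binding proteins carry hydrophobic molecules through the lymph, odorant receptors on the neurons respond, and enzymes such as cytochromes P450 and esterases can break odorants down. The question of the comparison is which antennal genes differ between the workers of the 2 kinds of society when both genotype and colony type differ.

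The 8 libraries held 1662249 to 4101327 expected counts, from 2373104 to 4101327 in P_Bb and from 1662249 to 4006513 in M_BB. Of 5 measures of depth and composition, none passed a test of the groups (exact permutation test, two-sided, n = 4 and 4, smallest adjusted p = 0.714, where the smallest p the design allows is 0.0286). Genes assembled from the reads of this study, which carry XLOC identifiers, took 36.0% ± 4.45 (SD, n = 4) of the counts in P_Bb and 32.4% ± 3.91 (SD, n = 4) in M_BB. The labels give library names with the prefix LGC16 to 1 P_Bb and 2 M_BB libraries and LGC to the rest, and what the prefix stands for is not given. Of the markers listed for other cell types, a hemocyte gene, pro-phenol oxidase subunit 2, carries an identifier with a name. The identifiers used here are not paired with the odorant receptor coreceptor or other antennal markers, so the labelled tissue was not checked against them.

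Expression was higher in P_Bb than in M_BB antennae for 16 genes, and no gene was called lower. Among 10503 genes tested, 16 passed higher in P_Bb (0.152%) and 0 passed lower (0.0%) in edgeR's quasi-likelihood test at an adjusted p under 0.05. At an unadjusted p under 0.05, 309 genes were higher (2.94%) and 406 were lower (3.87%). DESeq2 called 28 genes higher (0.267%) and 12 lower (0.114%), and limma on log2(TPM + 1) called 19 higher (0.181%) and 0 lower. The number of higher calls was 9 without M_BB bioreplicate 7. Lower calls numbered 2 without M_BB bioreplicate 2, 2 without M_BB bioreplicate 3 and 1 without P_BB bioreplicate 6. The 16 genes comprised an odorant binding protein, a cytochrome P450, an NADH dehydrogenase, 4 genes of transposable elements, a coiled-coil protein of the supergene and 8 genes of other or unknown function. All 16 stand in the list of 81 genes that the study selected on these 12 libraries, so that list is not independent evidence of their direction.

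**Figure D1:**
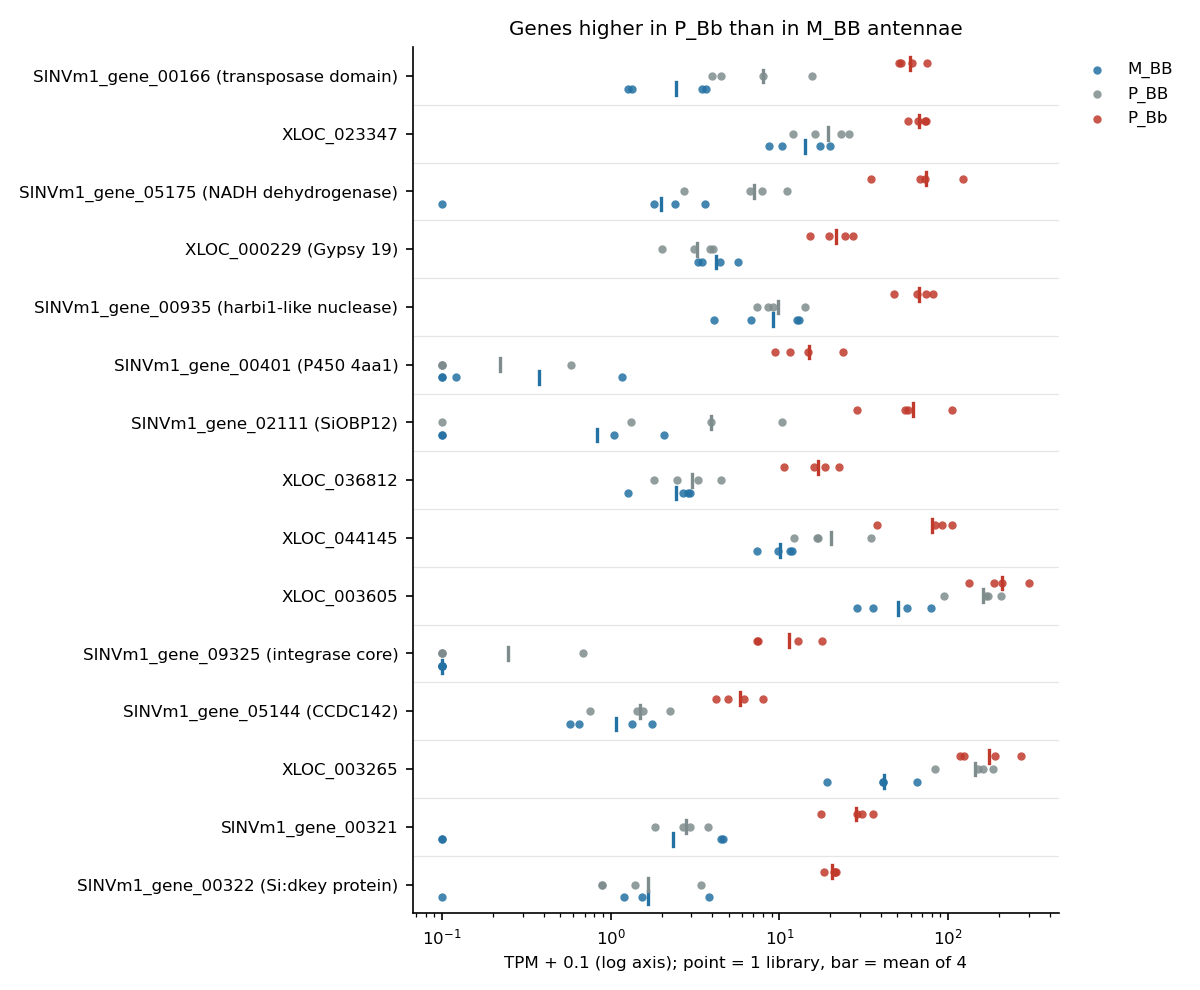
TPM + 0.1 on a log axis of 15 of the 16 genes with an adjusted p under 0.05, where each point is 1 library and each bar the mean of 4 libraries of M_BB (blue), P_BB (grey) or P_Bb (red). For each gene drawn, the 4 P_Bb libraries lie above the 4 M_BB libraries.

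In TPM, a level scaled to gene length and library size, the 4 P_Bb libraries lay above the 4 M_BB libraries for each of the 16 genes. Groups without overlap in this direction were found for 231 of the 10503 genes tested (2.2%), and in the reverse direction for 104 (0.99%). In CPM with TMM scaling these counts were 211 and 177. The 16 genes were called on these same libraries, so their separation is no added evidence. The log2 fold changes ranged from 1.99 to 7.15. The mean TPM of the 16 genes in P_Bb ranged from 5.71 to 208.

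The odorant binding protein gene *SiOBP12* (SINVm1_gene_02111) lies in the supergene. Its level in P_Bb was 57.8, 105, 28.6 and 55.2 TPM in bioreplicates 2, 3, 6 and 7. In M_BB the gene was listed at 0, 0, 0.94 and 1.97 TPM. Every P_Bb library held at least 28 counts and no M_BB library more than 1. Over the pooled counts, 176 against 2, the ratio scaled for library size was 83.5 (95% interval 22.8 to 695, exact, for counting error only). The fitted log2 fold change was 6.22 (SE 0.93, adjusted p = 0.0102 in edgeR's test), and its size depends on the prior count, since M_BB is near 0. Without M_BB bioreplicate 6 the adjusted p was 0.0504, and without M_BB bioreplicate 7 the fitted change was 6.85. In P_BB the level was 10.2, 3.82, 1.21 and 0 TPM. Reads of a near-identical copy of a gene are divided among copies in the gene set or counted with the single copy that is listed, so this value can hold reads of such a copy. The study attributes the higher level in SB/Sb antennae to such a copy, *SiOBP12b′*, and not to either allele of *SiOBP12*. It found that copy in the Sb genome and not in the SB genome, so the ratio is no measure of 1 gene that both groups carry.

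The second odorant perception gene of the supergene with values was the odorant receptor *SiOR463* (XLOC_016888, Si_gnH scaffold 28, positions 46860 to 48188, a single exon with no overlap with an annotated gene). Odorant receptors are membrane proteins of olfactory neurons that recognise single odorants or groups of them. The level was 5.90, 8.16, 3.94 and 5.54 TPM in P_Bb and 16, 11.8, 10.6 and 13.8 TPM in M_BB. The groups did not overlap, with all P_Bb libraries lower, but the difference did not pass over all genes tested (log2 fold change -1.27, SE 0.36, unadjusted p = 0.00303, adjusted p = 0.502 in edgeR's test). Its level in P_BB, between 11.5 and 13.7 TPM, lay within the M_BB range. The study found *SiOR463* deleted in the Sb genome, so the groups do not carry the same number of copies. It proposes that the lower level in SB/Sb antennae may reflect gene dose, which was not tested here. A receptor gene that the study also names, SINVm1_gene_13698, was too low to be tested, with 6 counts in all P_Bb libraries together and 9 in M_BB. Of the 14 assembled genes on scaffold 28, 13 were tested, 0 passed, and the median log2 fold change was -0.07. On scaffold 42, where 3 of 10 assembled genes were tested, 0 passed and the median was -0.08.

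**Figure D2:**
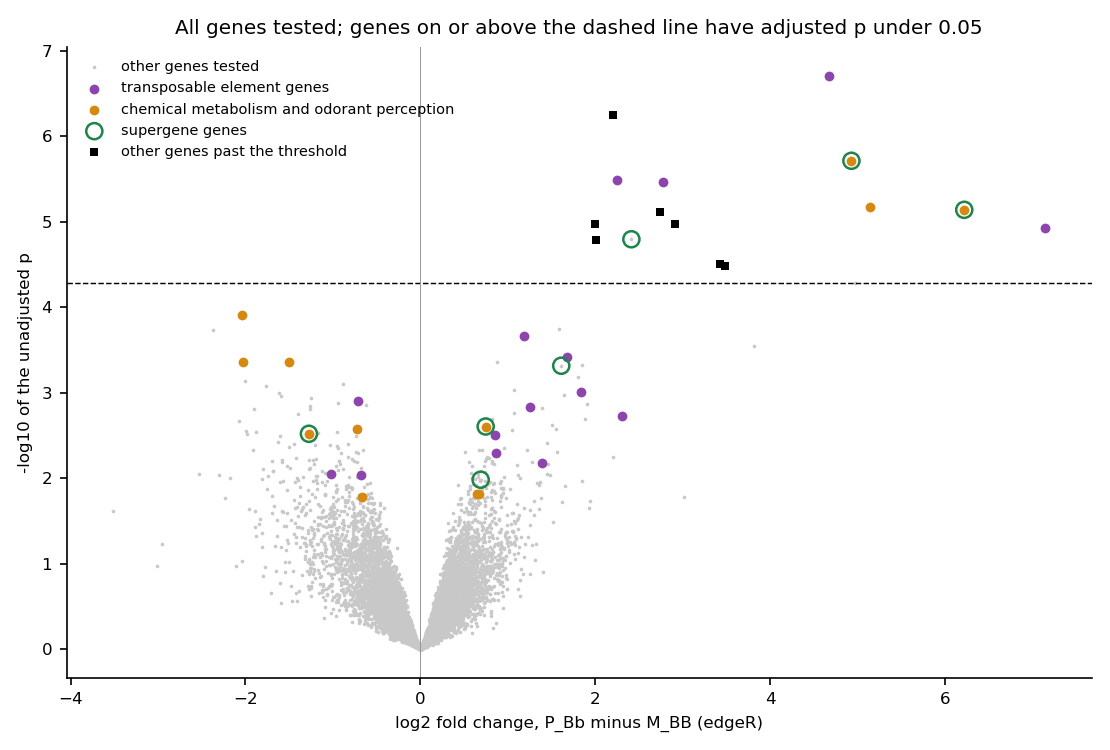
The log2 fold change of P_Bb minus M_BB against -log10 of the unadjusted p for the 10503 genes tested, with the genes of 3 lists and the other called genes that are described marked. The genes on or above the dashed line all lie to the right of 0, and 3 supergene genes are among them.

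Besides odorant perception, the list of chemical metabolism and odorant perception holds enzymes of lipid and xenobiotic metabolism, 13 genes in all. Of the 12 tested, 3 passed higher and 0 lower (against 0.152% and 0.0% of all genes tested), 6 were fitted above 0 and 6 below, and the median log2 fold change was -0.01 against -0.02 over all genes tested. The list comes from the study's own selection on these libraries and is not independent evidence. The genes that passed were *SiOBP12*, a cytochrome P450 and an NADH dehydrogenase.

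The probable cytochrome P450 4aa1 gene (SINVm1_gene_00401) belongs to a family of oxidizing enzymes that act on hormones, lipids and foreign compounds. It had 23.6, 14.6, 11.5 and 9.33 TPM in P_Bb. In M_BB it was listed at 0, 0.02, 1.07 and 0 TPM. All the M_BB counts, 3 after rounding, came from bioreplicate 6, and P_Bb held 121. The ratio of the pooled counts was 38.3 (95% interval 12.8 to 188), and the gene passed (log2 fold change 5.14, SE 0.76, adjusted p = 0.0102). The size of the fitted change depends on the prior count and on that library, and was 7.85 without it. P_BB was close to 0 as well, with 1 count in 4 libraries.

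The NADH dehydrogenase gene (SINVm1_gene_05175) is placed in the supergene and named for an enzyme of the respiratory chain. Its level was 72.7, 122, 34.7 and 68.0 TPM in P_Bb. In M_BB it was 3.50, 2.30, 1.71 and 0 TPM, which rests on 4 counts. The lowest P_Bb library was above the highest M_BB library by a wide gap, and the ratio of pooled counts was 31.1 (95% interval 11.8 to 116). The fitted log2 fold change was 4.93 (SE 0.66, adjusted p = 0.00678), and 5.57 without M_BB bioreplicate 2.

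Among the other members of this list, 3 had higher fitted levels in P_Bb without passing. The ubiquitin-like domain-containing CTD phosphatase gene (SINVm1_gene_05176) had 130 ± 25.2 TPM (SD, n = 4) in P_Bb and 73.2 ± 18.1 in M_BB, and these groups did not overlap (log2 fold change 0.75, adjusted p = 0.484). An esterase FE4-like gene (SINVm1_gene_00238) had 137 to 151 TPM in P_Bb and 33.8 to 127 in M_BB, with an adjusted p of 0.687. Iduronate 2-sulfatase (SINVm1_gene_10049), a lysosomal enzyme, had 74.0 to 117 TPM in P_Bb and 43.0 to 76.0 in M_BB, which overlapped. Fatty acid synthase (SINVm1_gene_00676) was not tested, being listed at 0 in P_Bb bioreplicates 2 and 3, 4.43 and 16.6 TPM in P_Bb bioreplicates 6 and 7, and 10.2, 24.8, 97.6 and 27.7 TPM in M_BB. Glycerol-3-phosphate acyltransferase 3-like (SINVm1_gene_01650), an enzyme of triglyceride synthesis, had 33.0 to 50.8 TPM in P_Bb and 55.4 to 79.4 in M_BB, with no overlap and an adjusted p of 0.485. Trehalose-phosphate synthase (SINVm1_gene_03610), which makes the blood sugar of insects, had 9.95 to 13.3 TPM in P_Bb and 9.38 to 25.4 in M_BB, and these overlapped.

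The study's list places 7 genes in the supergene, and all 7 were tested. Of the 7, 3 passed, all higher in P_Bb (42.9% against 0.152% of all genes tested), 6 were fitted higher and 1, *SiOR463*, lower. The median log2 fold change was 1.61. In each of the 7 the TPM values of the groups did not overlap, as in 2.2% (higher) and 0.99% (lower) of all genes tested. The list was chosen on these libraries, and only these 7 genes of the supergene have a placement here, so the share is no estimate for the supergene as a whole. The study also measured *SiOBP12*, SINVm1_gene_05175, SINVm1_gene_05326 and SINVm1_gene_05144 by quantitative PCR in separate antennal samples. It reported each of them higher in P_Bb than in M_BB and P_BB.

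The coiled-coil protein gene CCDC142 (SINVm1_gene_05144) was the third supergene gene that passed. It was expressed at a low level, 4.83, 4.08, 6.02 and 7.89 TPM in P_Bb and 0.47, 1.24, 1.65 and 0.55 TPM in M_BB. The lowest P_Bb library stood above the highest M_BB library, and the log2 fold change was 2.41 (SE 0.39, adjusted p = 0.0132). Without M_BB bioreplicate 7 the adjusted p was 0.0592, and without P_Bb bioreplicate 7 it was 0.0701. Its name follows the study's list. A figure legend of the study instead gives the coiled-coil name to SINVm1_gene_05326 and calls the function of SINVm1_gene_05144 unknown. The gene listed as uncharacterized (SINVm1_gene_05326) had 49.0, 62.4, 50.5 and 45.3 TPM in P_Bb and 6.14, 16.1, 20.5 and 23.2 TPM in M_BB. This separation did not pass (log2 fold change 1.61, adjusted p = 0.188 in edgeR's test, 0.00555 in DESeq2). The receptor tyrosine kinase gene *ror* (SINVm1_gene_13984), of a family that acts in Wnt signalling and neural development, had 13.4 to 21.4 TPM in P_Bb and 7.88 to 11.9 in M_BB (log2 fold change 0.69, adjusted p = 0.662).

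Transposable elements are mobile DNA whose transposase, integrase or reverse transcriptase genes can be transcribed with the host's own genes. Of the 16 transposable element genes in the study's list, 15 were tested, and 4 passed, all higher in P_Bb (26.7% against 0.152% of all genes tested). Of the 15, 12 were fitted higher and 3 lower, with a median log2 fold change of 1.39, and 11 had P_Bb libraries all above and 2 all below the M_BB libraries, as did 2.2% and 0.99% of all genes tested. Reads of 12 of the 16 were shared with other genes in some of the 8 libraries, a share near that of all genes tested (73.5%), so a count can hold reads of related copies. The list was again selected on these libraries.

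A gene with a transposase domain (SINVm1_gene_00166) had the smallest p of all genes tested. Its level was 74.4, 51.0, 60.5 and 52.7 TPM in P_Bb and 1.16, 3.35, 1.23 and 3.57 TPM in M_BB. The counts behind these values were 66 to 143 in each P_Bb library and 2 to 6 in each M_BB library. The log2 fold change was 4.68 (SE 0.52, adjusted p = 0.00205), and P_BB held 15.5, 4.37, 7.93 and 3.88 TPM. No read of this gene was shared with another gene in the 8 libraries.

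The integrase core domain gene (SINVm1_gene_09325) had no count in any M_BB library. Integrases of this kind insert retroelement DNA into the genome. Its level was 7.38, 17.7, 7.24 and 12.9 TPM in P_Bb, from 68 counts. Set against a floor of 3 counts over the M_BB group, the pooled count was at least 21.5-fold higher, and the gene passed with an adjusted p of 0.0113, which was 0.0504 without M_BB bioreplicate 6. The fitted log2 fold change of 7.15 depends on the prior count and is no bound. P_BB held 1 count in 4 libraries.

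The *Gypsy 19* retrotransposon gene (XLOC_000229, Si_gnH contig 21838, positions 385 to 5499) had 15.2, 24.2, 27.3 and 19.5 TPM in P_Bb and 5.60, 3.18, 3.36 and 4.33 TPM in M_BB. Gypsy elements are retrotransposons with long terminal repeats that resemble retroviruses. The lowest P_Bb library lay above the highest M_BB library, with a log2 fold change of 2.25 (SE 0.31, adjusted p = 0.00719). A nuclease harbi1-like gene (SINVm1_gene_00935), named for the nuclease of Harbinger DNA transposons, had 65.5, 47.3, 80.7 and 73.6 TPM in P_Bb and 3.97, 12.9, 6.67 and 12.6 TPM in M_BB. Here too the groups stood apart (log2 fold change 2.78, SE 0.39, adjusted p = 0.00719), with reads shared with other genes in 7 of the 8 libraries.

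Other harbi1-like genes had smaller differences, none of which passed. SINVm1_gene_10777 had 131 to 178 TPM in P_Bb and 36.0 to 83.5 in M_BB (log2 fold change 1.18, adjusted p = 0.115, and 0.000807 in DESeq2). SINVm1_gene_10481 had 287 to 349 TPM in P_Bb and 60.9 to 233 in M_BB (adjusted p = 0.603), and SINVm1_gene_09125 had 9.11 to 10.1 TPM and 0 to 3.14 (adjusted p = 0.405). In contrast, SINVm1_gene_00196 of the same name was lower in each P_Bb library, with 49.4 to 84.9 TPM against 98.4 to 104 TPM in M_BB (log2 fold change -0.68, adjusted p = 0.662). Genes that share this name thus had fitted differences of either sign.

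*Copia 12* (XLOC_042917) had 11.1 to 13.9 TPM in P_Bb and 1.11 to 5.23 in M_BB (log2 fold change 1.84, adjusted p = 0.308), and the non-LTR element *L2-1 sinv* (XLOC_001846) had 15.0 to 35.9 and 5.05 to 10.6 TPM (log2 fold change 1.68, adjusted p = 0.182). In edgeR's test both passed without M_BB bioreplicate 2, with an adjusted p of 0.0444 and 0.0157. In DESeq2 both passed as well, with 0.0168 and 0.00711. Of the alternative fits, 3 of 22 passed for *Copia 12* and 2 of 23 for *L2-1 sinv*. The Tc1 transposase gene (XLOC_003144) had a level of 205 ± 36.4 TPM (SD, n = 4) in P_Bb and 315 ± 67.7 in M_BB, with no overlap (log2 fold change -0.71, adjusted p = 0.348 in edgeR's test and 0.0465 in DESeq2). A *Pol*-like gene (XLOC_001842) had the lowest fitted difference, -1.02, with groups that overlapped. *Mariner 29* (SINVm1_gene_10899) was not tested, since its counts, 10 in P_Bb and 69 in M_BB, came from 1 library in each group.

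Both genes listed as viral proteins had P_Bb libraries above all M_BB libraries, as in 2.2% of all genes tested, without passing in edgeR's test on all 12 libraries. The lambda-type exonuclease gene (XLOC_000436) had 12.9 to 24.6 TPM in P_Bb and 1.78 to 8.16 in M_BB (log2 fold change 1.88, adjusted p = 0.42). The gene named only Orf (XLOC_036229) had 42.6 to 53.0 TPM in P_Bb and 17.3 to 28.4 in M_BB (log2 fold change 0.88, adjusted p = 0.186). Its adjusted p was 0.0421 in edgeR's test without M_BB bioreplicate 2 and 0.00789 in DESeq2, the 2 of 23 alternative fits that passed.

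Of the 25 uncharacterized genes in the list, 23 were tested, and 6 passed, all higher in P_Bb (26.1% against 0.152% of all genes tested), in a list selected on these libraries. XLOC_023347 (Si_gnH scaffold 59, positions 4 to 5251) had the second smallest p of all genes tested. Its level was 57.4, 65.8, 73.1 and 73.4 TPM in P_Bb and 10.3, 19.9, 8.53 and 17.4 TPM in M_BB, with 474 to 934 counts in each P_Bb library. These P_Bb values were even, and the log2 fold change was 2.20 (SE 0.27, adjusted p = 0.00295), past the threshold in all 12 fits that left out 1 library.

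XLOC_036812 (scaffold 268, positions 132061 to 133993) had 22.4, 10.6, 18.5 and 15.9 TPM in P_Bb and 1.17 to 2.84 TPM in M_BB (log2 fold change 2.75, SE 0.41, adjusted p = 0.0102). XLOC_044145 (scaffold 1317, positions 49 to 2060) had 105, 92.3, 37.7 and 83.1 TPM in P_Bb and 11.7, 11.5, 9.73 and 7.24 TPM in M_BB, and a log2 fold change of 2.91 (SE 0.44, adjusted p = 0.0112). Its adjusted p was 0.0639 without M_BB bioreplicate 6 and 0.0592 without M_BB bioreplicate 7. In both genes the groups stood well apart, with P_Bb bioreplicate 3 the lowest in XLOC_036812 and bioreplicate 6 in XLOC_044145.

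XLOC_003605 (contig 35838, positions 1 to 1210) and XLOC_003265 (contig 33228, positions 2 to 1367) were the most abundant of the 16. The level of XLOC_003605 was 133, 186, 208 and 303 TPM in P_Bb and 28.5, 79.2, 56.6 and 35.7 TPM in M_BB (log2 fold change 1.99, SE 0.31, adjusted p = 0.0112). XLOC_003265 had 118, 123, 190 and 269 TPM in P_Bb and 19.2, 65.4, 41.1 and 40.8 TPM in M_BB (log2 fold change 2.01, SE 0.32, adjusted p = 0.0132). Both were lowest in bioreplicate 2 and highest in bioreplicate 7 of P_Bb, and lowest in bioreplicate 2 and highest in bioreplicate 3 of M_BB. Without M_BB bioreplicate 7 the adjusted p of each was 0.0592, and XLOC_003265 also lost its call without M_BB bioreplicate 6 (0.0718) or P_Bb bioreplicate 7 (0.0616). They are also the 2 of the 16 genes in which P_BB was near P_Bb, with 94.5 to 204 and 83.2 to 184 TPM.

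SINVm1_gene_00321, uncharacterized, and SINVm1_gene_00322, named only as a Si:dkey protein, carry consecutive identifiers. SINVm1_gene_00321 had 30.7, 17.6, 28.8 and 35.8 TPM in P_Bb and 0, 4.50, 4.41 and 0 TPM in M_BB (log2 fold change 3.43, SE 0.58, adjusted p = 0.0229). SINVm1_gene_00322 had 18.3, 21.2, 20.9 and 21.5 TPM in P_Bb and 1.42, 0, 3.74 and 1.10 TPM in M_BB (log2 fold change 3.49, SE 0.60, adjusted p = 0.0229). No P_Bb library overlapped with M_BB, but with the bioreplicate as a block the adjusted p was 0.0565 and 0.0542. Without 1 of the libraries M_BB 7, P_Bb 2, P_Bb 6 or P_Bb 7 the adjusted p lay between 0.0592 and 0.115 for SINVm1_gene_00321 and between 0.0701 and 0.115 for SINVm1_gene_00322, which was also at 0.0726 without P_Bb bioreplicate 3. The log2 fold change of SINVm1_gene_00322 was 4.44 without M_BB bioreplicate 6.

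A gene named only as a Si:ch211- protein (SINVm1_gene_10405) had 37.5, 28.4, 31.4 and 19.9 TPM in P_Bb and 5.55, 0, 1.32 and 0 TPM in M_BB. Its difference did not pass (log2 fold change 3.82, SE 0.81, adjusted p = 0.143), and it was the 1 gene added to the calls when the bioreplicate was a block (adjusted p = 0.0422). It also passed without M_BB bioreplicate 2 (0.0168), in DESeq2 and in limma.

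Genes present in 1 group and near 0 in the other were counted with no model, as those with at least 10 counts in each library of 1 group and at most 3 in each of the other. There were 4 such genes present in P_Bb out of 19230 (0.0208%) and 0 present in M_BB (0.0%). The count in P_Bb was 7 with a minimum of 5 counts in every library, and 2 with at most 1 count in each M_BB library. The 4 were *SiOBP12*, the cytochrome P450, the NADH dehydrogenase and the integrase core gene, described above, and all are among the 16 calls.

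**Figure D3:**
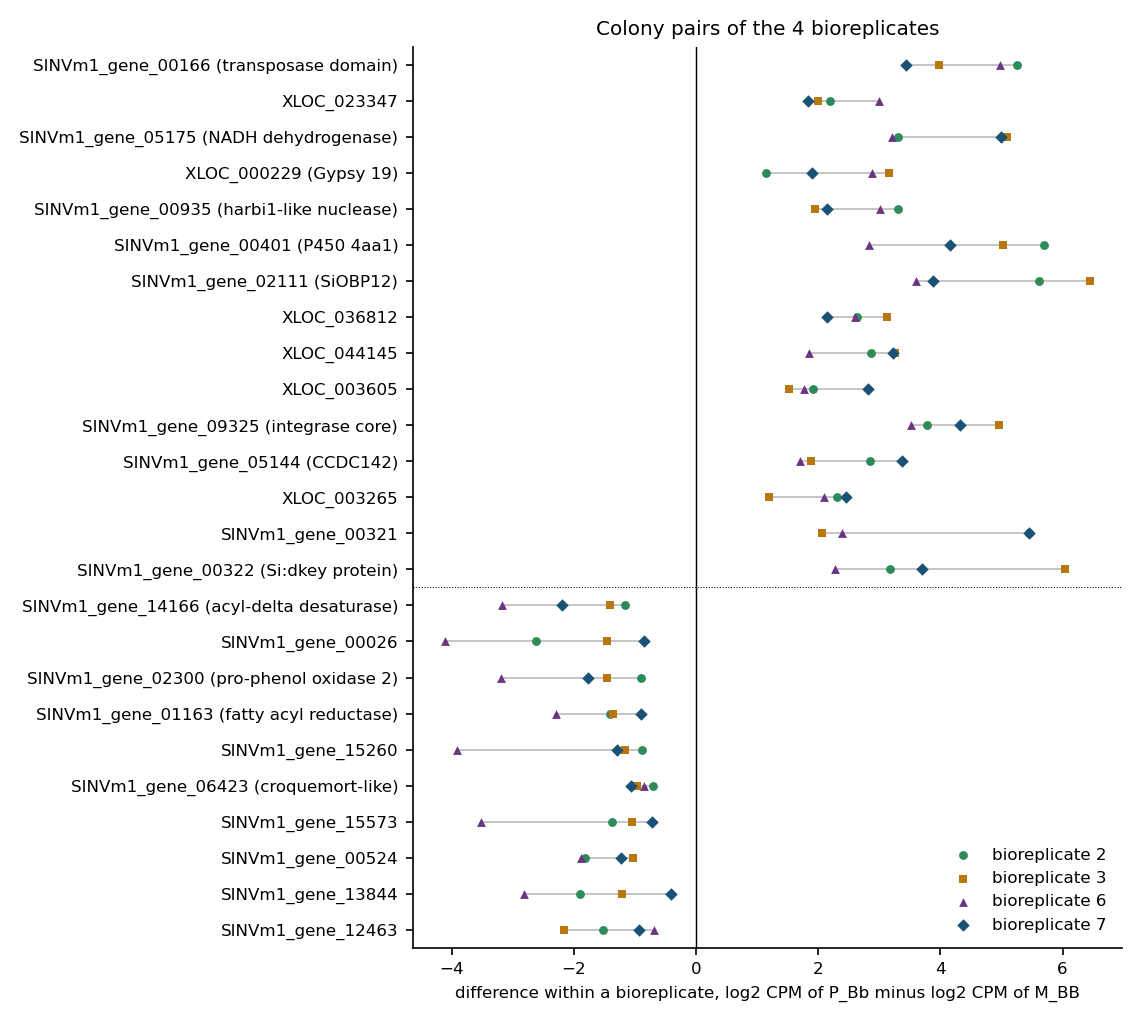
Difference in log2 CPM between the P_Bb and the M_BB library of each bioreplicate, for 15 of the 16 genes higher in P_Bb (above the dotted line) and the 10 genes with the smallest p among those lower in P_Bb (below it), where each symbol is 1 bioreplicate. All differences above the line are over 0 and all below it are under 0.

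The polygyne and the monogyne colony of a bioreplicate were collected and sampled on the same days. Within the bioreplicates, each of the 16 genes was higher in P_Bb in 4 of 4 pairs. The 16 were called on these same libraries and had no overlap in TPM, so this count is no separate evidence. The within-pair differences in log2 CPM, an abundance relative to library size, ranged from 1.15 for *Gypsy 19* in bioreplicate 2 to 6.45 for *SiOBP12* in bioreplicate 3. Bioreplicate 6 gave the smallest difference in 7 of the 16 genes, and bioreplicate 3 gave the largest in 7. A fit with a term for the bioreplicate called 15 genes (0.143%), all higher in P_Bb and 14 of them among the 16. The same term on the 8 libraries alone left 4 calls (0.0394%), all among the 16. These were *SiOBP12*, the transposase domain gene, XLOC_023347 and XLOC_044145. The cytochrome P450 (adjusted p = 0.14), *Gypsy 19* (0.151), SINVm1_gene_00935 (0.177), CCDC142 (0.222) and the integrase core gene (0.234) were among those that lost the call, and the NADH dehydrogenase gene was at 0.0591.

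The genes with lower levels in P_Bb did not pass, and the 10 with the smallest p are described by their values. All 10 carry identifiers of the official gene set, 4 are in the study's list, and 6 had groups that did not overlap. All 10 were lower in P_Bb in 4 of 4 pairs. The 10 were picked on these same libraries, so neither this count nor the lack of overlap is added evidence. DESeq2 called 9 of the 10, all but SINVm1_gene_00524.

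**Figure D4:**
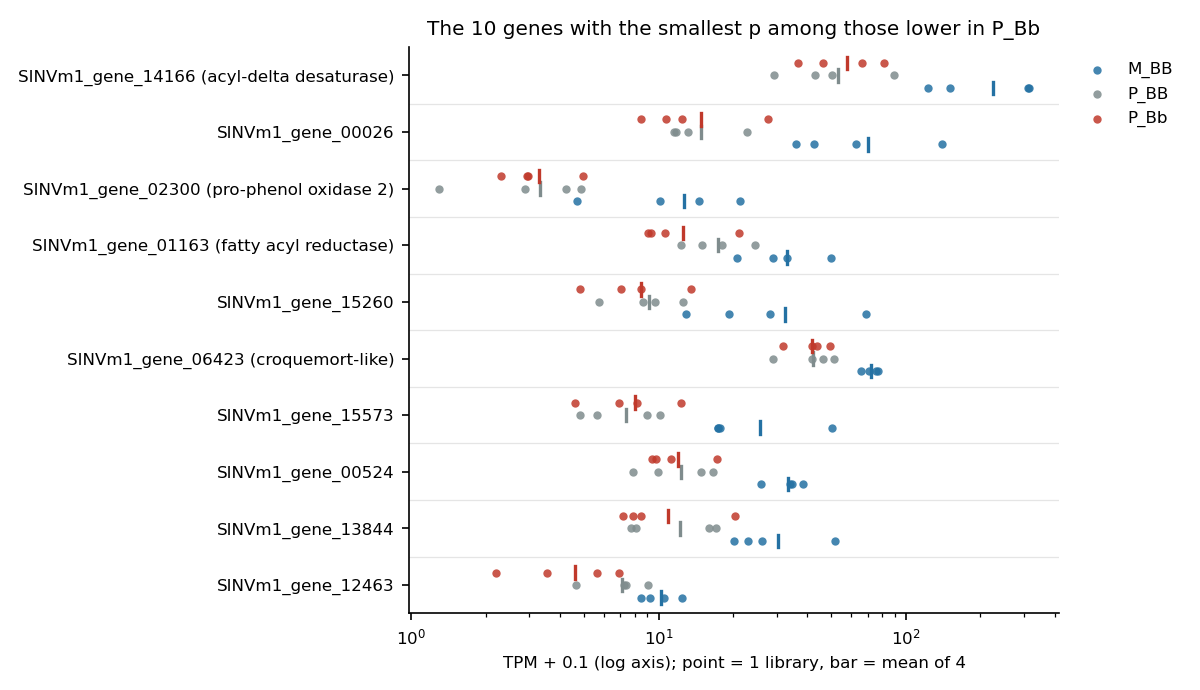
TPM + 0.1 on a log axis of the 10 genes with the smallest p among those lower in P_Bb, where each point is 1 library and each bar the mean of 4 libraries of M_BB (blue), P_BB (grey) or P_Bb (red). M_BB bioreplicate 6 is the highest of the 8 P_Bb and M_BB libraries in 7 of the 10 genes.

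An acyl-delta desaturase-like gene (SINVm1_gene_14166) had the smallest p of these. Desaturases put double bonds into fatty acid chains, and in insects they take part in making unsaturated hydrocarbons and pheromones. The level was 66.4, 46.2, 36.5 and 81.8 TPM in P_Bb and 123, 151, 312 and 316 TPM in M_BB. All M_BB libraries stood above all P_Bb libraries (log2 fold change -2.04, SE 0.39, adjusted p = 0.0757 in edgeR's test, 0.000155 in DESeq2). The adjusted p of edgeR was 0.041 without M_BB bioreplicate 2, 0.0352 without M_BB bioreplicate 3 and 0.0434 without P_BB bioreplicate 6, and it was 0.225 without M_BB bioreplicate 6 and 0.26 without M_BB bioreplicate 7.

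A fatty acyl reductase (SINVm1_gene_01163), an enzyme that turns fatty acyl chains into alcohols, had 9.19, 8.92, 10.5 and 21.0 TPM in P_Bb and 20.6, 28.8, 49.7 and 33.1 TPM in M_BB. The groups overlapped through P_Bb bioreplicate 7 and M_BB bioreplicate 2 (log2 fold change -1.50, SE 0.34, adjusted p = 0.186). Pro-phenol oxidase subunit 2 (SINVm1_gene_02300), a hemocyte gene of melanization and immune defence, had 2.86, 2.84, 2.21 and 4.83 TPM in P_Bb and 4.56, 9.98, 21.2 and 14.5 TPM in M_BB. It overlapped as well, with a log2 fold change of -2.03 (SE 0.45, adjusted p = 0.186), and the adjusted p was 0.0421 without M_BB bioreplicate 2. Its level in P_BB was 1.19 to 4.76 TPM, with bioreplicate 2 below every P_Bb library.

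A croquemort-like gene (SINVm1_gene_06423), named for a scavenger receptor with which hemocytes of *Drosophila* take up dead cells, was lower in every P_Bb library as well. It had 49.3, 31.6, 41.5 and 43.7 TPM in P_Bb and 66.0, 75.8, 70.7 and 76.8 TPM in M_BB (log2 fold change -0.89, SE 0.21, adjusted p = 0.275). The lowest M_BB library was above the highest P_Bb library. Pro-phenol oxidase and this gene are both known from hemocytes. Both were picked among the genes lower in P_Bb, so their shared direction is no evidence on hemocytes. The part of hemocyte RNA in the other values was not tested.

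The other 6 of the 10 have no function in the names used here. SINVm1_gene_00026 had 12.3, 10.6, 8.37 and 27.7 TPM in P_Bb and 62.6, 36.0, 140 and 42.5 TPM in M_BB, without overlap (log2 fold change -2.37, SE 0.47, adjusted p = 0.102, and 0.0272 without M_BB bioreplicate 3). SINVm1_gene_15260, SINVm1_gene_15573, SINVm1_gene_13844, SINVm1_gene_12463 and SINVm1_gene_00524 had log2 fold changes between -2.01 and -1.25 and adjusted p between 0.263 and 0.329. M_BB bioreplicate 6 was the highest of the 8 libraries in 7 of the 10 genes, and the pair of bioreplicate 6 had the largest difference in 8. The median log2 fold change of the 10 was -1.69, and -1.32 without M_BB bioreplicate 6, when all 10 were still below 0 and the smallest adjusted p was 0.225. P_Bb bioreplicate 7 was the highest P_Bb library in 8 of the 10.

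**Figure D5:**
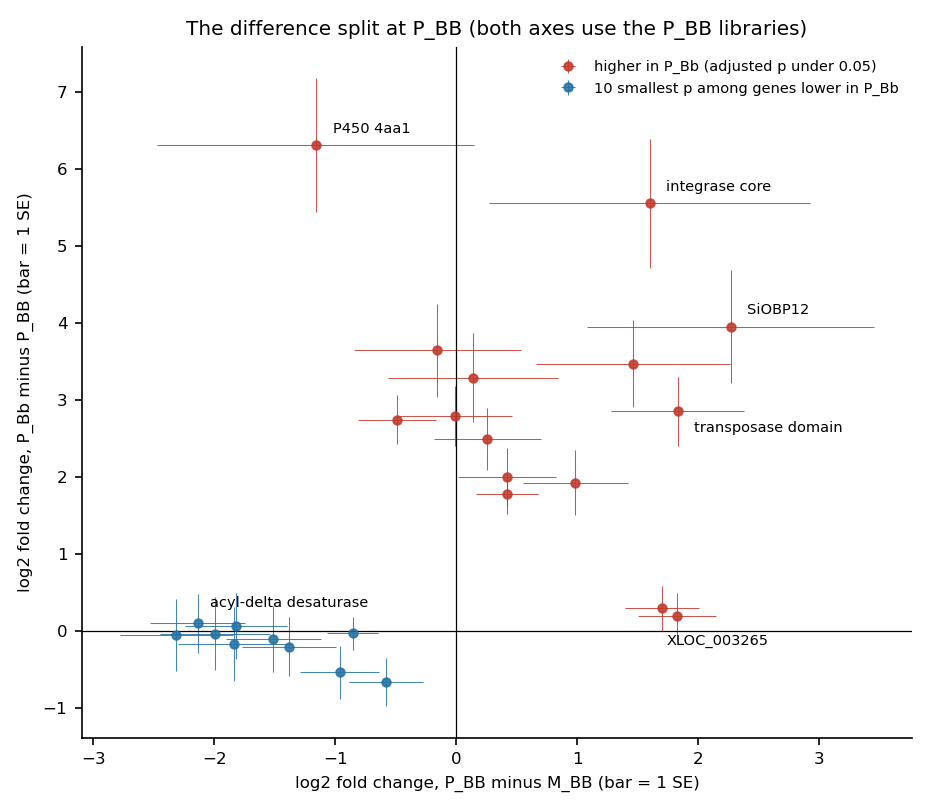
The log2 fold change of P_Bb minus P_BB against that of P_BB minus M_BB, with bars of 1 SE, for 15 of the 16 genes higher in P_Bb (red) and the 10 genes with the smallest p among those lower in P_Bb (blue). All red points but 2 have the larger step on the vertical axis.

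The P_BB libraries share the colony type with P_Bb and the genotype with M_BB, and each difference was split at P_BB. The step from M_BB to P_BB is between colony types and also between different colonies, which cannot be told apart. The step from P_BB to P_Bb is between genotypes of the same colonies. The 2 steps share the P_BB libraries, and their values are given side by side. For 14 of the 16 higher genes the step from P_BB to P_Bb was the larger (33.8% of all genes fitted higher), and the 4 P_Bb libraries lay above the 4 P_BB libraries in TPM for these 14 (0.819% of all genes tested). The 16 were called on P_Bb against M_BB with the same P_Bb libraries, which bears on these shares and on the counts that follow. For 12 of the 16, P_BB and M_BB overlapped in TPM (98.2% of all genes tested). In edgeR's test, 10 of the 16 also passed in P_Bb against P_BB and 0 passed in P_BB against M_BB, where 14 and 0 of the 10503 genes tested passed. This fit had no term for the colony that the P_Bb and P_BB libraries of a number share.

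The values of single genes show the range. For *Gypsy 19*, P_Bb minus P_BB was 2.74 (SE 0.32) and P_BB minus M_BB was -0.49 (SE 0.32) on the log2 scale. For *SiOBP12* they were 3.95 (SE 0.73) and 2.27 (SE 1.19), and for the transposase domain gene 2.85 (SE 0.44) and 1.83 (SE 0.55). The second step of *SiOBP12* rests on 11 counts in P_BB, 7 of them in bioreplicate 2, and 2 in M_BB. That of the transposase domain gene rests on 53 counts in P_BB, 24 of them in bioreplicate 2, and 15 in M_BB. The exceptions were XLOC_003265, with 0.19 (SE 0.31) and 1.82 (SE 0.32), and XLOC_003605, with 0.29 (SE 0.29) and 1.70 (SE 0.31). In these, P_Bb and P_BB overlapped, and neither step passed.

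Of the 10 genes with the smallest p among those lower in P_Bb, 9 had the larger step between P_BB and M_BB (68.7% of all genes fitted lower). P_Bb and P_BB overlapped in all 10 (98.7% of all genes tested), and all P_BB libraries lay below all M_BB libraries in 7 (0.638%). These genes were chosen on P_Bb against M_BB, which bears on both shares. For the acyl-delta desaturase, P_Bb minus P_BB was 0.09 (SE 0.39) and P_BB minus M_BB was -2.14 (SE 0.39). SINVm1_gene_12463 was the exception, with -0.67 (SE 0.31) and -0.58 (SE 0.30). None of the 10 passed in either step.

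The 16 genes were also sorted by how they were annotated. The choice of groups did not use the annotation, but the assembled genes were built from the reads of these same libraries. A gene expressed mainly in 1 group could enter that class through it, so the shares below are no independent evidence. The official gene set holds 9 of them (0.115% of the 7808 tested) and 7 are assembled genes (0.26% of the 2695 tested). None of the 7 assembled genes overlaps an annotated gene, a class in which 2133 genes were tested (0.328% called). Of the 7, 6 have a single exon (0.315% of 1902), and 4 lie on contigs that were not joined into scaffolds (0.595% of 672). Over all assembled genes tested, 1622 were fitted higher in P_Bb and 1073 lower, with a median log2 fold change of 0.09, against 3444 and 4364 and a median of -0.05 in the official genes. The share of counts in assembled genes, 31.1% to 41.3% in P_Bb and 28.8% to 37.9% in M_BB, overlapped between the groups (exact permutation test, two-sided, p = 0.257, adjusted p = 0.714), and its part in these values was not tested. Reads shared with other genes were present for 11 of the 16 in at least 1 of the 8 libraries, against 73.5% of all genes tested.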

How the data were processed

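Trimmed reads were mapped by the authors with Bowtie2 to 19230 genes (15589 official genes and 3641 genes assembled from these reads on the Si_gnH genome) and quantified by library with RSEM. They deposited an expected count per gene, not scaled for library size, and TPM values, which are scaled to length and library size. The deposited annotation of assembled genes (positions on scaffolds and contigs, an "other" kind of value) was used for positions. Duplicate reads of the amplified RNA are not stated to have been removed, so intervals cover counting error only.

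Expected counts were rounded and fitted in edgeR 4.0.16 (R 4.3.3) over all 12 libraries, with low genes removed by filterByExpr, TMM factors and a robust quasi-likelihood fit, and the contrast P_Bb minus M_BB was tested without a block. The study's own test was EBSeq, also on all 12 libraries. P-values were adjusted by Benjamini and Hochberg over 10503 genes, and genes under 0.05 were called. SEs were taken from the fold change and F. DESeq2 1.42.0 (8 genes had no adjusted p), limma 3.58.1, other size factors, filters, the block, the library prefix and each library left out were alternatives. Python 3.11.15, numpy 2.4.6, pandas 2.3.3, scipy 1.17.1 and matplotlib 3.10.9 were used.

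The bioreplicate numbers pair the libraries, since the study's supplementary methods give shared collection and sampling days for the 2 colonies of a number. Deviations of same-numbered P_Bb and M_BB libraries correlated across genes at -0.348 to 0.192 (median 0.0974), against -0.432 to 0.431 for other numbers. Libraries of a group were not copies of each other (chi-square per degree of freedom 5.99 or more).

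The groups, members and lists were chosen with earlier results of these data known. Named genes are all called genes, the 10 smallest p in a direction with fewer than 10 calls, the genes the study names by identifier, the members of its supergene and chemical lists, transposable element genes with the 3 highest and 3 lowest fold changes, and genes present in 1 group only. Other transposable element, viral and SINVm1_gene_10405 values were added after the values were seen. Names and placements come from the study's table of 81 genes, and no other identifier could be paired with a name. Of the called genes, 1 stays in the counts and is not reported here by name.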

Additional observations from a re-analysis of the deposited data

Results flagged for a closer look

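In 104 groups of 4 libraries, 5 values stood far from the other 3 libraries of their group (Dixon's test at the 95% level), where chance flags about 1 in 20 groups.

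In the cytochrome P450 gene (SINVm1_gene_00401), M_BB bioreplicate 6 was high at 1.07 TPM, with the others at 0 to 0.02. In XLOC_036812, M_BB bioreplicate 3 was low at 1.17 TPM, with the others at 2.58 to 2.84.

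Among the genes lower in P_Bb, P_Bb bioreplicate 7 was high at 21.0 TPM in the fatty acyl reductase gene (SINVm1_gene_01163), with the others at 8.92 to 10.5, and at 20.2 TPM in SINVm1_gene_13844, with the others at 7.07 to 8.36. In SINVm1_gene_15573, M_BB bioreplicate 6 was high at 50.2 TPM, with the others at 17.2 to 17.5.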

How the results depend on the processing

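The direction of no named gene that was tested reversed under any of the 23 settings, and of the alternative values of 47 genes 988 kept their side of the threshold, 47 lost the call and 28 gained it. Upper-quartile and median-of-ratios size factors and no filter each gave the same 16 higher calls. The count of genes higher in P_Bb was 5 with at least 10 counts in each of the 8 libraries, a filter that removes genes near 0 in M_BB, 28 with DESeq2, 4 with the 8 libraries and the replicate block, 4 with LGC-prefixed libraries only (3 P_Bb and 2 M_BB) and 5 at an adjusted p under 0.01. With 1 library left out it ranged from 9 to 21, and the genes lower in P_Bb from 0 to 2, while DESeq2 called 12 lower. The replicate block gave 15 higher calls and 0 lower and ended the calls of SINVm1_gene_00321 and SINVm1_gene_00322 only. Genes present in P_Bb and near 0 in M_BB numbered 7 with 5 counts in every library and 2 with at most 1 count in M_BB, and 4 to 6 with 1 library left out. In the reverse direction there was 1 gene with 5 counts in every library. Genes whose P_Bb libraries all lay below M_BB numbered 177 in CPM with TMM scaling. The cause of these shifts was not tested. Low levels are based on few reads, and the number of colonies limits the size of difference that can pass.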
